A study of Mus musculus with 4 samples.

Results

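The metabotropic glutamate receptor genes Grm2, Grm3, Grm4, Grm5, Grm6, Grm7 and Grm8 were followed across the cell types of the mouse basolateral amygdala (BLA). They were taken by symbol and are 7 of the 32285 genes counted in every library, and the rule that picked them uses no measured value. Nuclei of the BLA, a brain region that attaches threat and reward value to sensory cues, were profiled by single-nucleus RNA sequencing with 10x Genomics 3' v3 chemistry. DISC1-N mice were set against WT mice, with 2 libraries per genotype, all on the C57BL/6J strain. The stated aim was to ask whether BLA cells differ in function in DISC1-N mice. Both genotypes had received tamoxifen 6 h before collection, and the BLA of both sides was pooled from 5 mice a group. The genotype is labelled DISC1 in the sample titles and DISC-N in the sample characteristics, and the nature of the modification is not given in the sources used here. The 2 libraries of a genotype may share mice, so their spread may be technical only.

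Metabotropic glutamate receptors are G protein-coupled receptors that sense glutamate more slowly than ion channels do. Grm5 encodes a group I receptor, which sits mostly beside the postsynaptic density, couples to Gq and phospholipase C and binds Homer scaffolds. Grm2 and Grm3 encode group II receptors and Grm4, Grm6, Grm7 and Grm8 group III receptors, which couple to Gi/o, lower cyclic AMP and, at nerve terminals, reduce transmitter release. In the rodent amygdala these receptors are known for their part in fear learning and its extinction.

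On mm10 (1-based), Grm7 spans chr6:110645581-111567230 on the plus strand, Grm8 chr6:27275119-28135178 on the minus strand and Grm5 chr7:87584168-88134907 on the plus strand. Grm3 lies at chr5:9485541-9725170 on the minus strand, Grm4 at chr17:27422387-27521403 on the minus strand, Grm2 at chr9:106643095-106656082 on the minus strand and Grm6 at chr11:50850685-50866208 on the plus strand. All 7 are annotated as protein-coding. Opposite-strand gene models overlap Grm2 (Gm28111, 39 UMIs in all), Grm6 (Gm12660, 0 UMIs) and the start of Grm7 (Gm20387, 829 UMIs against 344939 for Grm7). How strand was used in counting is not given, so how well reads of each such pair were told apart is not known here.

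RefSeq promoter windows on GRCm38.p6, from 250 bases before to 50 bases after a start, matched 5 of the 7 genes (Grm2, Grm3, Grm6, Grm7 and Grm8). Windows are shown for Grm7 and Grm8, whose levels went together across neuron subtypes, and for Grm6, which had next to no UMIs. Capitals mark the GC box GGGCGG, searched on both strands and present in 35.7% of the 32851 windows of this length.
Grm7 (chr6:110645262-110645561, plus strand): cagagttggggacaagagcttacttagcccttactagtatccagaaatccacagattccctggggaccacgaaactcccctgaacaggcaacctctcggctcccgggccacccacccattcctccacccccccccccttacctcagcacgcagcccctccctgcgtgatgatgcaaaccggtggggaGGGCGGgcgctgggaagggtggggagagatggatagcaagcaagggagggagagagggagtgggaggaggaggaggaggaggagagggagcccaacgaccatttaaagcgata
Grm8 (chr6:28135097-28135396, minus strand): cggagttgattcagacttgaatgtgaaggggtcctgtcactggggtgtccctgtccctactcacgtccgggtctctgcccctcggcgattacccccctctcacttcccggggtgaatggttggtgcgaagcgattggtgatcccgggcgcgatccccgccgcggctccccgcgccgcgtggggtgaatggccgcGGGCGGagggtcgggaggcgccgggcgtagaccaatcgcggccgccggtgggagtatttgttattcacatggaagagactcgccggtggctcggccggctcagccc
Grm6 (chr11:50850435-50850734, plus strand): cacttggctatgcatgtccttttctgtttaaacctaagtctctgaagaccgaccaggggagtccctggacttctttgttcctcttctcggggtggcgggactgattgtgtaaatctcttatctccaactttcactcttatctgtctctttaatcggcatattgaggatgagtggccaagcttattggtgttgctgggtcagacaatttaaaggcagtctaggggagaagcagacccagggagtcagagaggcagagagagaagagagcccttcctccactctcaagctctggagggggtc
The Grm7 window held 1 GC box and 10 CG pairs, and the Grm8 window 1 GC box and 33 CG pairs. The Grm6 window held 0 boxes and 4 CG pairs, against a median of 7 CG pairs over all windows. Of the windows not printed, that of Grm2, also a scarce gene, held 4 GC boxes and 22 CG pairs, and that of Grm3 2 boxes and 11 CG pairs. A relation of these counts to the levels was not tested. RefSeq lists 2 starts for Grm7 and 3 for Grm8, and the most upstream window is printed.

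The 4 libraries held 27313 barcodes and 166878123 UMIs, and the 7 genes took 851346 of these UMIs, or 0.472% and 0.551% in the DISC1-N libraries and 0.475% and 0.554% in the WT libraries. Library totals lay between 37840301 and 48439711 UMIs. After filtering and doublet removal 25332 nuclei were left, of which 22281 fell into 9 marker-named classes and 12966 into 21 neuron subtypes. Class names stand for nuclei that resemble the class by its markers, and subtypes are called by leading genes. Each library held nuclei of every class, while clusters of fibroblast-like or ependymal cells were not found. Pairs of libraries shared 5 to 21 barcodes. Disc1 stood at 14.7 and 17.1 CPM in the DISC1-N libraries, against 13.6 and 13.4 CPM in the WT libraries, over all barcodes, which does not check the labels while the modification is unknown. Both replicate 1 files were made with a later software version than both replicate 2 files, so the replicate number stands for a processing batch that is balanced over genotype. Levels are CPM, the UMIs of a gene scaled to 1000000 UMIs of the nuclei summed per class and library. CPM from 3' counts of nuclei is not corrected for gene length, so levels are compared between cells for 1 gene, and not between genes.

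Neurons carried the most Grm5, Grm7 and Grm8, while Grm3 was high in astrocytes and oligodendrocytes. Grm3 was also high in the mural class, whose nuclei carried astrocyte and oligodendrocyte markers besides their own. Grm5, the Gq-coupled member, also stood high in oligodendrocyte precursors, and Grm7 in mature oligodendrocytes. Grm4 and Grm2 were scarce, and Grm6 was next to absent. The classes and subtypes were made from the same nuclei without the 7 genes, so the levels are a description with no test between cell types.

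**Figure D1:**
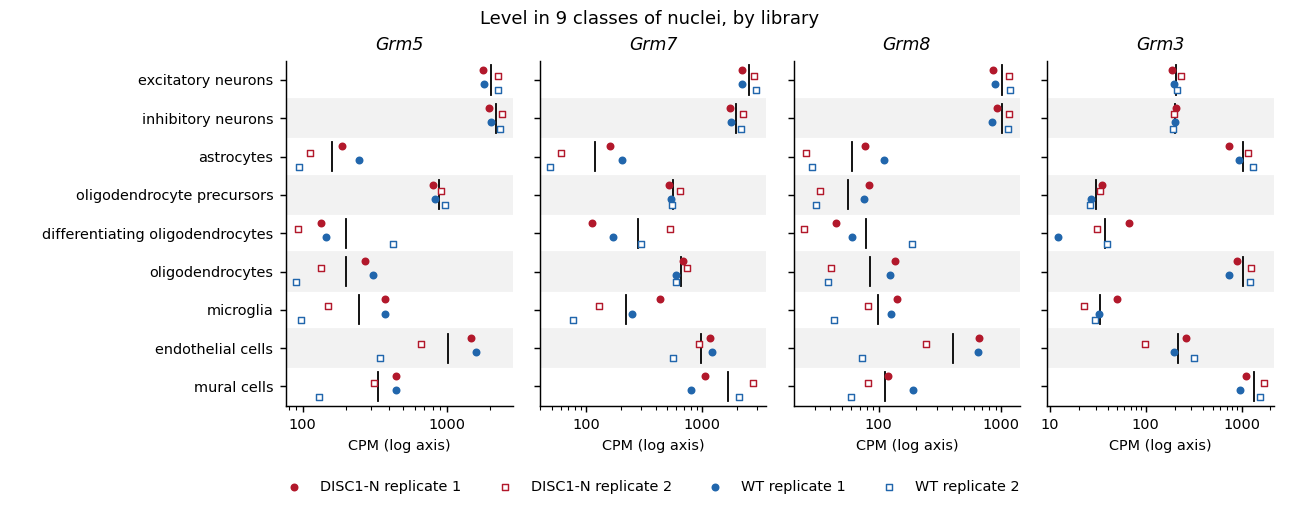
Level of Grm5, Grm7, Grm8 and Grm3 in 9 classes of nuclei, in CPM on log axes. Each point is 1 library (red for DISC1-N, blue for WT, filled for replicate 1, open for replicate 2) and the black bar is the mean of 4 libraries. Grm5, Grm7 and Grm8 are high in both neuron classes, and Grm3 in astrocytes, oligodendrocytes and mural cells. In astrocytes and microglia the replicate 1 libraries of both genotypes stand above the replicate 2 libraries for Grm5, Grm7 and Grm8.

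Grm5 stood at 1977 and 2435 CPM in the DISC1-N libraries, against 2019.9 and 2347 CPM in the WT libraries in inhibitory neurons. In excitatory neurons it stood at 1790.5 and 2259.7 CPM in the DISC1-N libraries, against 1807 and 2268 CPM in the WT libraries. The means were 2195 ± 230.0 CPM and 2031 ± 268 CPM (SD over 4 libraries, as for every mean below), and the 2 neuron classes overlapped. In each library the inhibitory level was the higher one. A Grm5 UMI was seen in 97.1% of inhibitory and 99.4% of excitatory nuclei, whose median depths were 4053 and 7841 UMIs. In microglia the share was 19% at a median of 1051 UMIs. With nuclei thinned to 1000 UMIs the shares were 82.2%, 83.2% and 17.9%. Here and below, nuclei under 1000 UMIs were left out of thinning, so the thinned shares cover the deeper nuclei only.

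Oligodendrocyte precursors, the dividing glia that receive synapses from neurons, held Grm5 at 804 and 913 CPM in the DISC1-N libraries, against 831 and 968 CPM in the WT libraries. Their mean was 879 ± 75.1 CPM, and every library of precursors lay above every library of mural cells, the next class down. The level was 2.69 to 10.7 times that of mature oligodendrocytes within a library. The 8 excitatory markers summed to 29.8% to 57% of the excitatory level in precursors and 42.9% to 81.1% in mature cells, where Grm5 stood at 40.4% to 46% and 3.98% to 17.1%. Without Camk2a and Nrgn the other 6 markers summed to 20.3% to 48.8% in precursors and 27.5% to 73.9% in mature cells. With nuclei classed by their own marker score precursors averaged 1533 CPM and mature cells 726 CPM. With doublets kept they averaged 1053 and 578 CPM, so the precursors stayed higher by a smaller ratio. Mature oligodendrocytes stood at 269 and 133 CPM in the DISC1-N libraries, against 309 and 90.2 CPM in the WT libraries. Astrocytes had the lowest mean, 161 ± 71 CPM, and held 189 and 113 against 248 and 93.8 CPM (DISC1-N against WT). Neighbours from mural cells (333 CPM) through microglia (248 CPM) and oligodendrocytes to astrocytes all overlapped. The endothelial mean of 1022 CPM rested on 23 to 50 nuclei per library and ranged over 342 to 1607 CPM. Differentiating oligodendrocytes, with 16 nuclei in 1 library, averaged 199 CPM, and 124 CPM without WT replicate 2.

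Among neuron subtypes Grm5 was highest in Foxp2 Kcnh8 neurons, GABA neurons of the Foxp2 group without Penk, at 2646 and 3430.1 CPM in the DISC1-N libraries, against 2492 and 3162 CPM in the WT libraries. This subtype led in 3 of 4 libraries. Prkcd Nts Calcrl neurons, which carry markers of the central amygdala, followed at 2650.1 ± 142 CPM, and the libraries of the 2 subtypes overlapped. At the other end Cnr1 Npas1 neurons held 466 and 589.9 CPM in the DISC1-N libraries, against 503 and 527 CPM in the WT libraries. They were lowest in all 4 libraries, although their markers scored nearly alike for the Adarb2 and Vip groups, and lay apart from Vip neurons, the next subtype up, at 892 and 1082 against 1055 and 1145 CPM (DISC1-N against WT). Ndnf Kit neurons, another GABA group marked by Adarb2 without Vip, held 2317 ± 341 CPM, which was 3.97 to 5.12 times the Cnr1 Npas1 level within a library. In the order of 21 subtypes 2 of 20 neighbouring pairs did not overlap, that of Vip with Cnr1 Npas1 and that of Rorb (1461 CPM) with Npas1 Reln (1151 CPM).

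**Figure D2:**
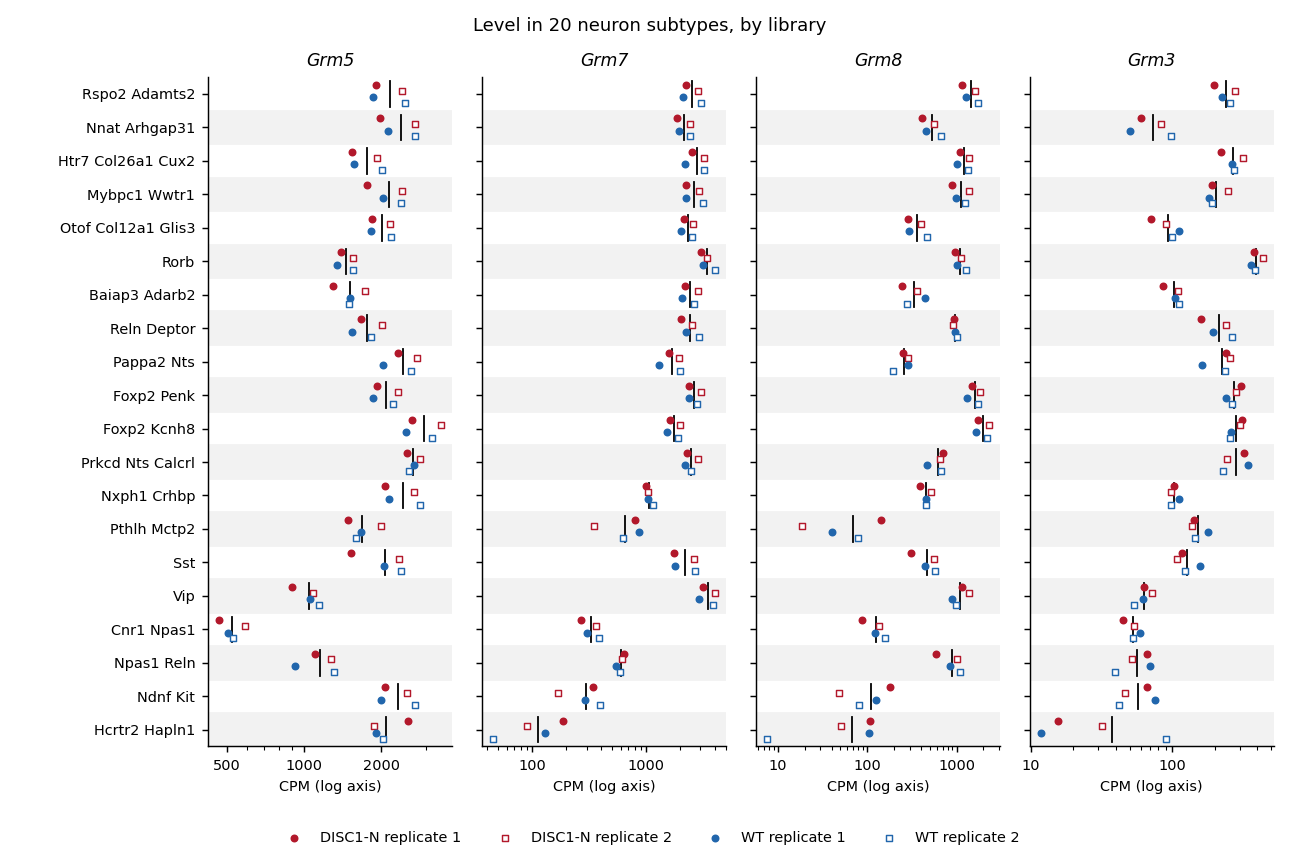
Level of Grm5, Grm7, Grm8 and Grm3 in 20 neuron subtypes, in CPM on log axes, with 1 point per library (red for DISC1-N, blue for WT, filled for replicate 1, open for replicate 2) and the mean of 4 libraries as a black bar. The first 9 subtypes from the top are glutamate neurons or, for Pappa2 Nts, without a class, and the lower 11 are GABA neurons. Grm7 is low in Cnr1 Npas1, Ndnf Kit and Hcrtr2 Hapln1 neurons, and Grm5 in Cnr1 Npas1 neurons.

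Grm7, whose product sits in the active zone of presynaptic terminals and has a low affinity for glutamate, was highest in excitatory neurons at 2232 and 2843 CPM in the DISC1-N libraries, against 2209 and 2942 CPM in the WT libraries. Inhibitory neurons held 1758 and 2262 CPM in the DISC1-N libraries, against 1775 and 2157 CPM in the WT libraries. The classes overlapped, although in each library the excitatory level was the higher one. A UMI was seen in 99.8% of excitatory and 91.7% of inhibitory nuclei and in 15.3% of microglia, and in 89%, 75.1% and 15.2% at 1000 UMIs.

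Mature oligodendrocytes, the myelin-forming glia, held Grm7 at 679.9 and 738 CPM in the DISC1-N libraries, against 595 and 600.1 CPM in the WT libraries. This was 2.92 to 12.4 times the astrocyte level within a library, and astrocytes had the lowest mean at 118 ± 76.2 CPM. Oligodendrocyte precursors held 517 and 644 CPM in the DISC1-N libraries, against 543 and 554 CPM in the WT libraries. The gap narrowed when nuclei were classed by their own marker score, with means of 1122 CPM in oligodendrocytes and 556 CPM in astrocytes, and with doublets kept, at 973 and 409.6 CPM. A Grm7 UMI was seen in 44.3% of oligodendrocytes at a median of 1350 UMIs, against 15.8% of astrocytes at 1885.5 UMIs. After thinning these shares were 36.5% and 9.09%. Microglia held 431 and 129 against 248 and 76.6 CPM (DISC1-N against WT), and their excitatory marker genes, summed, stood at 1294 and 613 CPM in the DISC1-N libraries, against 1267 and 724 CPM in the WT libraries. Both were higher in the replicate 1 libraries, and the part of neuronal RNA in the microglial level was not tested.

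The mural class, pericytes and smooth muscle of small vessels, held Grm7 at 1063 and 2747 CPM in the DISC1-N libraries, against 808 and 2088 CPM in the WT libraries. The level varied with the replicate number far more than in neurons, and averaged 1029.7 CPM in nuclei with at least 1000 genes. This class had 40 to 65 nuclei per library, and its markers do not stand alone. Its own 7 markers summed to 2830.2 and 3331 CPM in the DISC1-N libraries, against 2414 and 3962 CPM in the WT libraries. Astrocyte markers summed to 4500.1 and 3734 CPM in the DISC1-N libraries, against 3838 and 2278 CPM in the WT libraries. Oligodendrocyte markers summed to 3188 and 2229 CPM in the DISC1-N libraries, against 2332 and 522 CPM in the WT libraries, and ependymal markers reached 1791 CPM in WT replicate 2. The part of these other cells in the mural level was not tested.

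Vip neurons, GABA cells that mostly inhibit other interneurons, had the highest mean of Grm7 among subtypes, at 3178 and 4037 CPM in the DISC1-N libraries, against 2927 and 3873 CPM in the WT libraries. Rorb neurons, a glutamate subtype, followed at 3045 and 3429 CPM in the DISC1-N libraries, against 3166 and 4043 CPM in the WT libraries, and each of the 2 led in 2 libraries. In contrast with Vip cells, the GABA neurons of the Ndnf Kit subtype held 345 and 169 CPM in the DISC1-N libraries, against 290.1 and 392 CPM in the WT libraries. The Vip level was 9.20 to 23.9 times the Ndnf Kit level and 9.75 to 11.7 times the Cnr1 Npas1 level within a library. Cnr1 Npas1 neurons held 271 and 367 against 300.2 and 383 CPM and Hcrtr2 Hapln1 neurons 187 and 89.9 against 129 and 45.3 CPM (DISC1-N against WT in both). Hcrtr2 Hapln1 neurons were lowest in all 4 libraries, with 11 to 37 nuclei each and markers that scored nearly alike for the Pvalb and Adarb2 groups. The 6 subtypes of lowest mean Grm7, which were Nxph1 Crhbp, Pthlh Mctp2, Npas1 Reln, Cnr1 Npas1, Ndnf Kit and Hcrtr2 Hapln1, are all GABA neurons.

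Sst neurons, GABA cells that target dendrites, held Grm7 at 2217 ± 521 CPM, against 1059 ± 63.7 CPM in Nxph1 Crhbp neurons, which score highest for Pvalb markers. The ratio of Sst to Nxph1 Crhbp was 1.71 to 2.52 within a library, and the libraries of the pair did not overlap. Of 20 neighbouring pairs in the Grm7 order 3 did not overlap. These were Pappa2 Nts (1700.0 CPM) with Nxph1 Crhbp, Nxph1 Crhbp with Pthlh Mctp2 (659 CPM), and Npas1 Reln (601 CPM) with Cnr1 Npas1 (330.3 CPM). The other neighbours could not be ordered beyond the spread of their libraries.

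Grm8, another presynaptic group III receptor gene, was level between the neuron classes. Excitatory neurons held 849 and 1157 CPM in the DISC1-N libraries, against 884 and 1176 CPM in the WT libraries. Inhibitory neurons held 931 and 1155 CPM in the DISC1-N libraries, against 833 and 1142 CPM in the WT libraries. Apart from endothelial cells, whose libraries ranged over 73.2 to 654 CPM, every other class averaged between 55.9 CPM in oligodendrocyte precursors and 113 CPM in mural cells. Both neuron classes lay above each of these classes in every library. A Grm8 UMI was seen in 86% of excitatory and 76.1% of inhibitory nuclei and in 8.52% of microglia. At 1000 UMIs the shares were 53.7%, 54% and 8.32%.

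Within neurons Grm8 varied widely between subtypes. Foxp2 Kcnh8 neurons were highest in all 4 libraries, at 1746 and 2309 CPM in the DISC1-N libraries, against 1666 and 2205 CPM in the WT libraries. Foxp2 Penk neurons, which carry markers of the intercalated cells, came next at 1593 ± 235 CPM, and Prkcd Nts Calcrl neurons held 627 ± 105 CPM. The Foxp2 Kcnh8 level was 2.49 to 3.53 times that of Prkcd Nts Calcrl neurons within a library. Among glutamate neurons Rspo2 Adamts2 cells led at 1162 and 1628 CPM in the DISC1-N libraries, against 1292 and 1736 CPM in the WT libraries. Otof Col12a1 Glis3 cells held 284 and 402 CPM in the DISC1-N libraries, against 292 and 469 CPM in the WT libraries, so that the 2 glutamate subtypes stood 3.70 to 4.42-fold apart within a library. The subtypes of lowest mean were Cnr1 Npas1 (126 CPM), Ndnf Kit (109 CPM), Pthlh Mctp2 (70.2 CPM) and Hcrtr2 Hapln1 (68.4 CPM). All 20 neighbouring pairs of the Grm8 order overlapped.

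Grm3, a group II receptor gene whose product also binds N-acetylaspartylglutamate, was highest outside neurons. Astrocytes held 743 and 1163 CPM in the DISC1-N libraries, against 943 and 1324 CPM in the WT libraries. Mature oligodendrocytes held 898 and 1263 CPM in the DISC1-N libraries, against 748 and 1219.8 CPM in the WT libraries. The mural class held 1117 and 1703 CPM in the DISC1-N libraries, against 971 and 1566 CPM in the WT libraries. These classes overlapped, and all libraries of the 3 lay above all libraries of endothelial cells, the next in the order. A Grm3 UMI was seen in 78% of astrocytes and 68.5% of oligodendrocytes, against 3.20% of microglia.

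The oligodendrocyte lineage was split for Grm3. Precursors held 35.2 and 33.3 CPM in the DISC1-N libraries, against 27 and 26 CPM in the WT libraries, the lowest mean of the 9 classes. Mature cells stood 25.5 to 46.9-fold above precursors within a library, whereas Grm5 ran the other way. By own marker score the Grm3 means were 836 CPM in mature cells and 138 CPM in precursors, and with doublets kept 858 and 82.5 CPM, so the split kept its direction and was several times smaller. The mural level went to 424 CPM when each nucleus was classed by its own marker score, and to 886 CPM with doublets kept. Mural nuclei also carried astrocyte and oligodendrocyte markers, as given above for Grm7, and their part in the Grm3 level was not tested.

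Neurons held less Grm3, with 208 ± 20.9 CPM in excitatory and 200.2 ± 5.64 CPM in inhibitory neurons. Their libraries overlapped, and inhibitory neurons ranged only over 195 to 207 CPM. Of the subtypes reported by name, Rorb neurons had the highest mean, at 379 and 439 CPM in the DISC1-N libraries, against 364 and 388 CPM in the WT libraries, above every library of Prkcd Nts Calcrl neurons, the next subtype at 284 ± 55.8 CPM. Nnat Arhgap31 neurons, also glutamatergic, held 60.6 and 83.2 against 50.7 and 98.7 CPM (DISC1-N against WT), and the Rorb level was 3.93 to 7.17 times theirs. Mybpc1 Wwtr1 (203 CPM) and Pthlh Mctp2 neurons (151 CPM) were the only other neighbouring pair whose libraries did not overlap. Vip, Ndnf Kit, Npas1 Reln, Cnr1 Npas1 and Hcrtr2 Hapln1 neurons all averaged 62.9 CPM or less.

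Grm4, a group III gene known best from cerebellar granule cell terminals, was scarce and stood highest in inhibitory neurons. Inhibitory neurons held 20.2 and 18.5 CPM in the DISC1-N libraries, against 20.2 and 21.6 CPM in the WT libraries, above every library of excitatory neurons, oligodendrocyte precursors, astrocytes and oligodendrocytes. Excitatory neurons held 6.24 ± 0.27 CPM. Foxp2 Penk neurons were highest in all 4 libraries, at 37.3 and 34.8 CPM in the DISC1-N libraries, against 29.96 and 37.3 CPM in the WT libraries. Their 359 UMIs were seen in 11.6% of nuclei at a median of 3454 UMIs, against a share of 0.355% in microglia at 1051 UMIs. After thinning to 1000 UMIs the shares were 2.81% and 0.373%. Oligodendrocyte precursors held 34 UMIs, or 10.1 and 13 against 5.40 and 5.52 CPM (DISC1-N against WT), and mural cells 0 UMIs, which with 3 counts as a limit allowed up to 24.7 to 35.6 CPM per library. Differentiating oligodendrocytes also held 0 UMIs, with a limit of 18.4 to 67.2 CPM, so neither class can be placed below inhibitory neurons.

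Grm2, a group II gene found at presynaptic terminals, stood at 13 and 9.61 CPM in the DISC1-N libraries, against 13.9 and 9.57 CPM in the WT libraries in excitatory neurons. Inhibitory neurons held 6.03 and 1.82 CPM in the DISC1-N libraries, against 4.32 and 3.47 CPM in the WT libraries. The endothelial mean of 14.1 ± 12.9 CPM was nominally the highest of the classes but rested on 7 UMIs. Rspo2 Adamts2 neurons were highest in all 4 libraries, at 20.5 and 16.3 CPM in the DISC1-N libraries, against 21.2 and 16.4 CPM in the WT libraries, with a UMI in 15.9% of nuclei at a median of 9235 UMIs. In microglia the share was 0.781% at 1051 UMIs, and after thinning the shares were 1.87% and 0.621%. All neighbouring subtypes overlapped for Grm2, as they did for Grm4.

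Grm6, the receptor gene of retinal ON bipolar cells, had 1 UMI in all 4 libraries, in a Mybpc1 Wwtr1 neuron of DISC1-N replicate 1. In inhibitory neurons 0 UMIs were counted, which with 3 counts as a limit allowed up to 0.287 to 0.624 CPM per library. It was tested in no class.

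**Figure D3:**
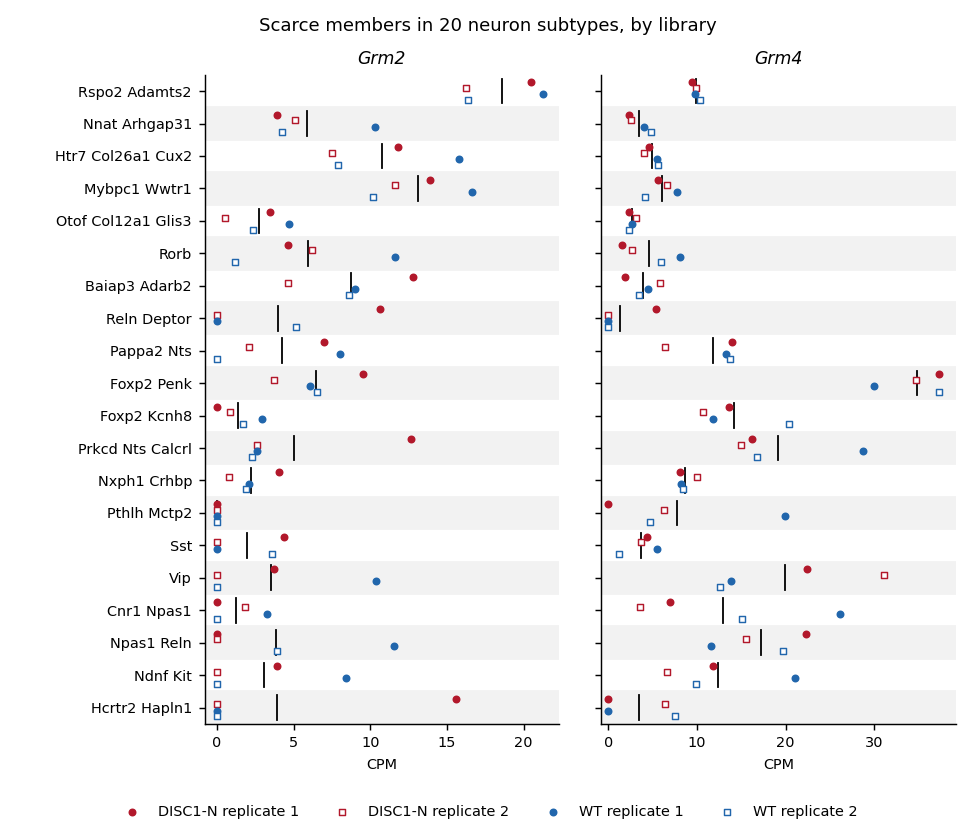
Level of Grm2 and Grm4 in 20 neuron subtypes, in CPM on linear axes, with 1 point per library (red for DISC1-N, blue for WT, filled for replicate 1, open for replicate 2) and the mean of 4 libraries as a black bar. Grm2 is highest in Rspo2 Adamts2 neurons at 16.3 to 21.2 CPM, and Grm4 in Foxp2 Penk neurons at 29.96 to 37.3 CPM.

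Of the pairs of members, Grm7 and Grm8 went together most closely. Over the 21 subtype means on a log2(CPM + 1) scale their Pearson r was 0.75, and over all 30 classes and subtypes 0.79. Grm3 and Grm7 had an r of 0.65 over the subtypes, Grm5 and Grm7 0.21 and Grm5 and Grm8 0.13. These points share libraries, and the subtypes are parts of the neuron classes, so no p is given.

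Among 10819 candidate genes the pattern most like that of Grm5 over the 30 classes and subtypes was shown by Glt1d1 (r = 0.941), Rbfox1 (0.941), a neuronal splicing factor gene, and Ica1 (0.937). For Grm7 these genes were Fam189a1 (0.852), Galnt17 (0.845) and Muc3a (0.834). For Grm8 they were Fam126b (0.854), Pitpnm3 (0.844) and Cpne4 (0.831). The pattern of Grm3 was less closely matched, by Mast4 (0.731), Ngef (0.692) and Garem1 (0.688), and that of Grm4 by St8sia3 (0.761), Vsnl1 (0.754) and Uba6 (0.751).

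The proportions of the members to each other set some classes apart. Grm7 over Grm5, as a ratio of UMIs, was 1.25 and 1.26 in the DISC1-N libraries and 1.22 and 1.30 in the WT libraries in excitatory neurons. In inhibitory neurons it was 0.889 and 0.929 in the DISC1-N libraries and 0.879 and 0.919 in the WT libraries. Each library thus held more Grm7 per Grm5 UMI in excitatory than in inhibitory neurons, and the classes did not overlap. In oligodendrocytes the ratio ran from 1.92 to 6.66, above both neuron classes in every library, and in oligodendrocyte precursors from 0.572 to 0.706, below both.

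Microglia showed a ratio of Grm7 to Grm5 of 0.669 to 1.16 and of Grm8 to Grm5 of 0.338 to 0.544, which overlapped the 0.412 to 0.486 of inhibitory neurons. Precursors had a Grm8 to Grm5 ratio of 0.0318 to 0.104, below every neuronal library. Grm3 over Grm5 was 3.81 to 14.1 in astrocytes and 2.42 to 13.5 in oligodendrocytes, against 0.0944 to 0.108 in excitatory neurons. Set against the excitatory level of the same library, microglia held 4.27% to 20.8% of Grm5, 2.61% to 19.3% of Grm7 and 3.64% to 16.8% of Grm8. The 8 excitatory markers in microglia summed to 61.5% to 100.1% of their excitatory level.

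Of that sum in microglia 68% to 78.6% was Camk2a, a kinase subunit gene, and Nrgn, which encodes a calmodulin-binding protein of dendrites. Nrgn stood at 653 and 389 CPM in the DISC1-N libraries, against 758 and 442 CPM in the WT libraries in microglia. In excitatory neurons it stood at 221 and 153 CPM in the DISC1-N libraries, against 270.2 and 181 CPM in the WT libraries, below the microglial level in every library. Camk2a went the other way, at 226 and 93 CPM in the DISC1-N libraries, against 139 and 90.2 CPM in the WT libraries in microglia. In excitatory neurons it stood at 666 and 557 CPM in the DISC1-N libraries, against 688 and 584 CPM in the WT libraries. Without Camk2a and Nrgn the other 6 markers in microglia summed to 45.6% to 102.1% of their excitatory level. The markers thus differed among themselves in how far microglia approached the neuronal level, while the sum stayed high without these 2 genes. The part of free RNA in the glial levels of the receptor genes was not tested.

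**Figure D4:**
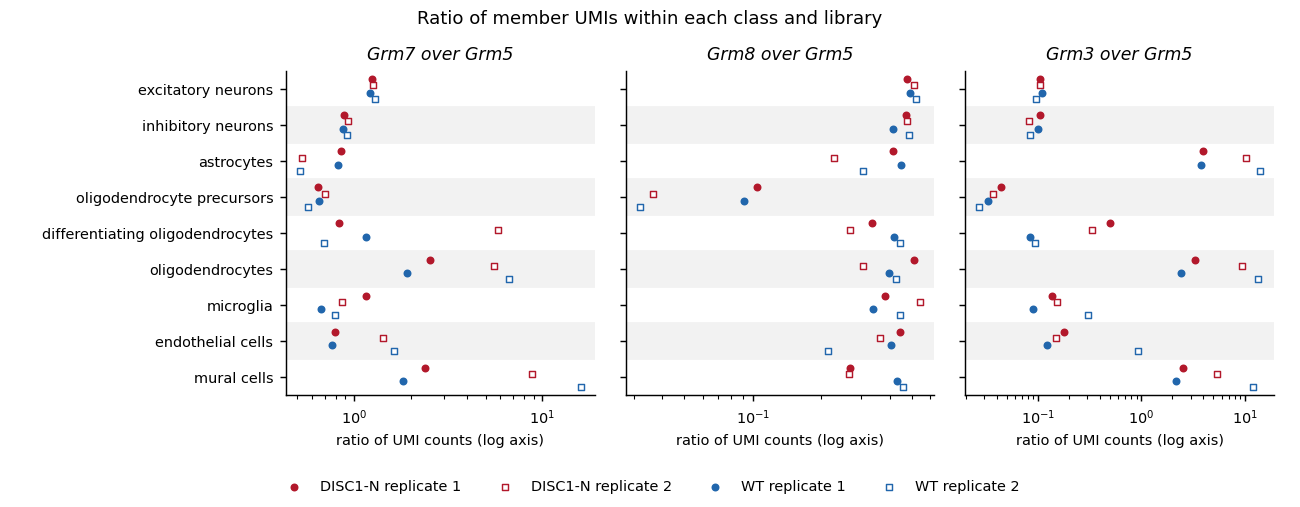
Ratio of the UMIs of Grm7, Grm8 and Grm3 to those of Grm5 in 9 classes, on log axes, with 1 point per library (red for DISC1-N, blue for WT, filled for replicate 1, open for replicate 2). Grm7 over Grm5 lies at 1.22 to 1.30 in excitatory neurons and 1.92 to 6.66 in oligodendrocytes, and Grm8 over Grm5 is lowest in oligodendrocyte precursors.

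None of the 7 genes was called different between DISC1-N and WT in any class or subtype. edgeR's quasi-likelihood test was fitted to all genes in 8 classes and 18 subtypes, those with at least 20 nuclei in every library, with a Benjamini-Hochberg adjusted p under 0.05 as the threshold. The members gave 118 tests, with 0 called, 0 with an unadjusted p under 0.05 and a smallest adjusted p of 0.998, while DESeq2 also called 0. Of all genes in the 26 fits 0.000423% were called, with 0% in each of excitatory neurons, inhibitory neurons and astrocytes. This fit also called none of the changes planted in simulated counts of the 8 classes, so its lack of calls says little about the members. Of the members 6 passed the filter on low counts somewhere, Grm3, Grm5, Grm7 and Grm8 in all 26 fits, Grm4 in 8 and Grm2 in 6. With 2 libraries against 2, an exact permutation test cannot go below p = 0.333.

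**Figure D5:**
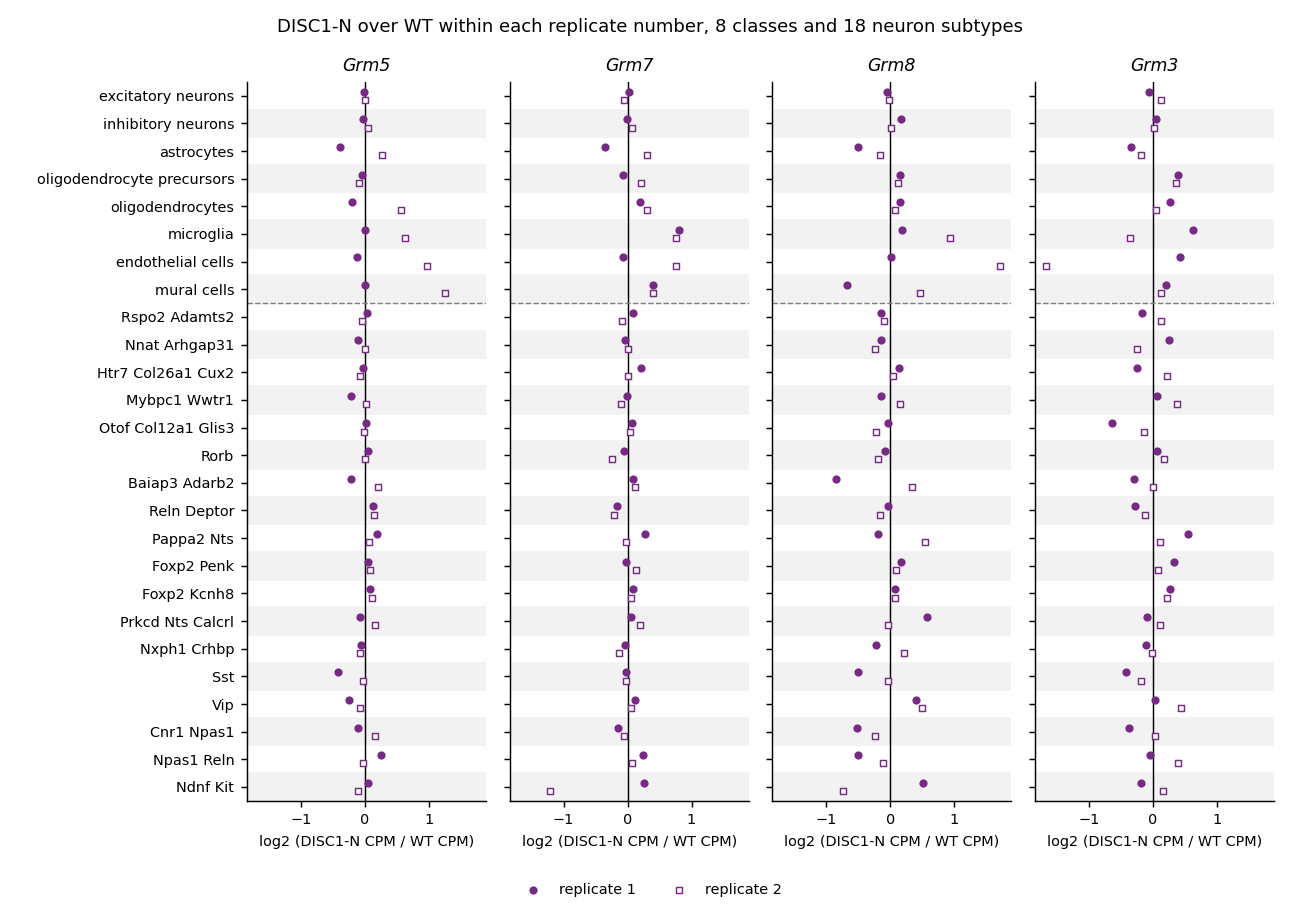
DISC1-N over WT level within each replicate number, as log2 of the ratio of CPM, for Grm5, Grm7, Grm8 and Grm3 in 8 classes (above the dashed line) and 18 neuron subtypes. Filled circles are replicate 1 and open squares replicate 2. In excitatory neurons the points of Grm5, Grm7 and Grm8 sit near 0, and the points of replicate 1 and replicate 2 part most in endothelial cells and in Ndnf Kit neurons.

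In excitatory neurons the Grm5, Grm7 and Grm8 levels given above overlapped between the genotypes. Their log2 fold changes of DISC1-N over WT were 0.00 (SE 0.30), -0.01 (SE 0.32) and -0.03 (SE 0.29), with adjusted p of 1.00 in edgeR for each. In inhibitory neurons they were 0.03 (SE 0.28), 0.04 (SE 0.29) and 0.09 (SE 0.28). Standard errors of this size leave room for changes that 4 libraries could not show, and the p-values do not show equal levels.

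With the replicate number as a term, which leaves 1 residual degree of freedom, 0.246% of all genes were called and again 0 of the 118 member tests. Of these tests 10 had an unadjusted edgeR p under 0.05. Subtypes are parts of the classes, so the tests are not independent, and the 10 are not set against an expected number. Grm8 in Vip neurons came closest to a call. It stood at 1158 and 1393 CPM in the DISC1-N libraries, against 879 and 987 CPM in the WT libraries, so both DISC1-N libraries lay above both WT libraries. The log2 fold change was 0.48 (SE 0.29) without the replicate term (edgeR adjusted p = 1.00) and 0.47 (SE 0.12) with it (adjusted p = 0.0631). Of the 5675 genes tested in Vip neurons 0.0176% were called without the term and 0.194% with it.

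Grm4 in oligodendrocyte precursors had the largest fitted difference, on 34 UMIs. Both DISC1-N libraries, at 10.1 and 13 CPM, lay above both WT libraries, at 5.40 and 5.52 CPM. The log2 fold change was 1.12 (SE 0.61), with an edgeR adjusted p of 1.00 without and 0.897 with the replicate term.

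Grm3 in astrocytes, the class named in the study's title, overlapped between the genotypes. Its log2 ratio was -0.34 within replicate 1 and -0.19 within replicate 2. The fitted value was -0.22 (SE 0.44) without the replicate term and -0.23 (SE 0.09) with it (edgeR adjusted p = 0.479). In oligodendrocytes Grm3 had a log2 fold change of 0.15 (SE 0.55) and in mural cells of 0.18 (SE 0.58).

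Grm7 in microglia was higher in the DISC1-N library within each replicate number, by a log2 ratio of 0.80 and 0.75, but DISC1-N replicate 2 lay below WT replicate 1. The fitted value was 0.78 (SE 0.62), with an edgeR adjusted p of 1.00, and 0.54 with the replicate term. It changed sign, to -0.19, when nuclei were classed by their own marker score. In Ndnf Kit neurons Grm7 was split, with a log2 ratio of 0.25 within replicate 1 and -1.22 within replicate 2.

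Both DISC1-N libraries lay on one side of both WT libraries in 16 of the 118 tests (13.6%), against 23.1% of all gene tests in the 26 fits. Of these 16, the DISC1-N libraries were the higher in 10 and the lower in 6, where 10.8% and 12.2% of all tests were. Grm3 took 8 of its 26 tests, with DISC1-N higher in precursors, Foxp2 Kcnh8, Foxp2 Penk, Mybpc1 Wwtr1, Pappa2 Nts and Vip cells and lower in Otof Col12a1 Glis3 and Sst neurons. Grm3 in Foxp2 Kcnh8 neurons stood at 314 and 300.4 CPM in the DISC1-N libraries, against 262 and 257 CPM in the WT libraries, a log2 fold change of 0.27 (SE 0.22). In Otof Col12a1 Glis3 neurons it stood at 70.9 and 90.8 CPM in the DISC1-N libraries, against 111 and 101 CPM in the WT libraries, a log2 fold change of -0.35 (SE 0.22). Grm4 took 4 of 8 tests, Grm7 and Grm8 2 of 26 each, and Grm5 0 of 26. In excitatory and inhibitory neurons Grm4 was the member whose libraries did not overlap, with DISC1-N the lower, where 18.6% and 18.7% of all genes did not overlap. In inhibitory neurons this rested on a near tie, with 20.18 CPM in DISC1-N replicate 1 against 20.20 CPM in WT replicate 1. Excitatory neurons held 6.00 and 6.06 CPM in the DISC1-N libraries, against 6.59 and 6.31 CPM in the WT libraries. The log2 fold changes were -0.08 (SE 0.23) in excitatory and -0.11 (SE 0.19) in inhibitory neurons.

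Within both replicate numbers the DISC1-N level was the higher in 36 and the lower in 34 of the 118 tests. Fitted log2 fold changes ran from -0.54 for Grm4 in Prkcd Nts Calcrl neurons to 1.12 for Grm4 in oligodendrocyte precursors. The genotype difference itself was compared between cell types in 1 edgeR fit. Over 8 classes 0% of 14531 genes were called, and over 18 subtypes 0% of 12801 genes, with an adjusted p of 1 for each of the 6 members tested.

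Genes that act with these receptors were also not called in excitatory neurons or astrocytes without the replicate term. In excitatory neurons, of the 27 listed genes of Gi/o coupling 24 were tested, 3 with a log2 fold change above 0 and 21 below, with a median of -0.06. Of the 26 listed genes of Gq coupling and Homer and Shank scaffolds 25 were tested, 8 above and 17 below 0, with a median of -0.05. Of 13 genes of agonist supply and removal 11 were tested, 5 above and 6 below 0, with a median of -0.02. The median over all genes was -0.00. In inhibitory neurons Gi/o genes stood 12 above and 12 below 0, in oligodendrocyte precursors 7 and 17 and in oligodendrocytes 9 and 13. In microglia they stood 10 and 8, in endothelial cells 6 and 9 and in mural cells 6 and 2. List genes share the same 4 libraries, so such signs are not independent and were not set against an expected split.

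The list genes of lowest p in excitatory neurons included Slc17a6, a vesicular glutamate transporter gene, with a log2 fold change of -0.51 (adjusted p = 1.00, SE 0.19) in edgeR. With the replicate term Slc17a6 was lower in DISC1-N, by 0.50 on the log2 scale (edgeR adjusted p = 0.012). With that term 1.54% of all genes were called. Slc17a6 stood at 12.4 and 14.6 CPM in the DISC1-N libraries, against 19.9 and 19.1 CPM in the WT libraries. The class pools subtypes, and the part of subtype shares in this difference was not tested. Slc7a11, the cystine-glutamate exchanger gene, had 0.45 (adjusted p = 1.00, SE 0.24). Adcy8 and Elfn1 had the lowest p of the Gi/o list, at -0.25 and -0.31, and Ncdn and Rgs4 of the Gq list, at -0.31 and -0.36. Elfn1 encodes a postsynaptic protein that binds group III receptors across the synapse.

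In astrocytes the tested Gi/o genes stood 7 above and 16 below 0 with a median of -0.08, and the Gq genes 8 above and 16 below with a median of -0.10. The agonist genes stood 3 above and 7 below with a median of -0.04, against -0.00 over all genes. Gng2, a G protein gamma subunit gene, had a log2 fold change of -1.03 (adjusted p = 1.00, SE 0.39) in edgeR, and Gnb2, a beta subunit gene, -0.30. Homer2, a scaffold gene of group I receptors, had -0.81 (adjusted p = 1.00, SE 0.38), and Rgs4 -0.54. Among agonist genes Slc1a1, a neuronal glutamate transporter gene, had -1.09 and Glul, glutamine synthetase, 0.28. Summed excitatory markers in astrocytes stood at 696 and 308 CPM in the DISC1-N libraries, against 817 and 400.1 CPM in the WT libraries, with DISC1-N below WT in both replicate numbers, and their part in these values was not tested.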

How the data were processed

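The authors deposited raw UMI counts for each gene in each barcode, from Cell Ranger and mm10, per the file headers and the submitters' processing notes. Replicate 1 files of both genotypes carry version 7.0.0 in their headers and replicate 2 files 6.0.2, whereas 7.0.0 alone stands in the notes. Whether intronic reads and strand entered the counting is not given in the sources used here.

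Of 27313 barcodes, 26850 had 500 or more genes and no more than 5% mitochondrial UMIs, and 1518 of these were removed by Scrublet score (0.8% per 1000 nuclei). Counts were clustered without the 7 genes with scanpy 1.11.5 and leidenalg 0.10.2, on 30 principal components of 2000 variable genes, with 15 neighbours and a resolution of 0.5. A class needed at least 3 detected markers. Clusters with a median doublet score over 0.1, or shallow or mixed clusters, got no class, and a marker score gap of at least 0.1 was asked; both limits were set with the data seen. Subtypes are named by leading genes and not held to this: Cnr1 Npas1, Npas1 Reln and Hcrtr2 Hapln1 subclusters were mixed, and Mybpc1 Wwtr1, Baiap3 Adarb2, Reln Deptor and Pappa2 Nts had too few markers. Of the 21 neuron subtypes, 1 is not reported here; it stays in the orders, pairs and correlations over 21 subtypes. Inhibitory subclusters of 1 leading group were merged, and those of Foxp2 Penk neurons split by replicate number.

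UMIs were summed per class and library and scaled to CPM. edgeR 4.0.16 in R 4.3.3 (quasi-likelihood, TMM factors, filterByExpr with a minimum count of 10) tested DISC1-N against WT over all genes, with DESeq2 1.42.0 beside it. Same-numbered libraries deviated together from the genotype means (r of 0.188 to 0.651 over 26 fits), and the replicate number was used as a block in a second fit. Since libraries may share mice, p-values may reflect technical spread alone. The test of the genotype difference between subtypes and the alternative with the deep cluster were added after the data were seen. The scripts were tested on simulated data, where the fit without the block called no planted change and the fit with it called some in every class but mural cells.

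The named genes are the 7 members in every class and subtype, the 3 genes of highest Pearson r with each member that reached 20 CPM, and the 2 list genes of lowest p in excitatory neurons and in astrocytes. Members and lists were chosen with earlier results of these data known. Annotation is GENCODE vM21, and promoter windows are from RefSeq. Tamalin, of the Gi/o list, was not matched by symbol. Counting error of shares and limits from 3 counts do not cover spread between mice.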

Additional observations from a re-analysis of the deposited data

How the results depend on the processing

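The count of members called between DISC1-N and WT was 0 under every alternative run, which were the replicate block, DESeq2 with and without the block, DESeq2 size factors, no expression filter, at least 1000 genes per nucleus, each nucleus's own marker score, the deep cluster added and each library left out. The smallest adjusted p of a member was 0.0631 with the replicate block and 0.367 without WT replicate 1. Classing nuclei by their own marker score reversed Grm5 in oligodendrocyte precursors to a log2 fold change of 0.057 (0.0575 with the block) and Grm7 in microglia to -0.19 (-0.193 with the block), and the cause was not tested. Leaving out 1 library at a time moved the log2 fold change over 0, with ranges of -0.63 to 0.11 for Grm3 in astrocytes, -0.22 to 0.66 in oligodendrocytes and -0.11 to 0.54 in mural cells, -0.19 to 0.12 for Grm5 in precursors and -0.18 to 0.21 in inhibitory neurons, -0.25 to 0.27 for Grm7 in excitatory neurons, -0.20 to 0.25 in inhibitory neurons and -0.28 to 1.84 in microglia, and -0.33 to 0.26 for Grm8 in excitatory and -0.16 to 0.39 in inhibitory neurons. The fits with 1 library left out had no replicate term, and genotype was not balanced over replicate number in them. Their ranges thus also carry the difference between the replicate numbers. With the replicate block, Grm5 in excitatory neurons had -0.00 (SE 0.06), Grm7 -0.01 (SE 0.06) and Grm8 -0.03 (SE 0.06), and the block changed no call of a member. Of the 37 class levels of at least 20 CPM, own marker scores moved 24 by over 1.5 times, keeping doublets 19, the 1000-gene filter 3, and leaving out WT replicate 2 moved 2, both in differentiating oligodendrocytes. Grm5 in astrocytes went to 554 CPM and in microglia to 1168 CPM by own marker score, against 161 and 248 CPM. The low glial levels of Grm5, Grm7 and Grm8, and of Grm3 in precursors and microglia, thus depend on which nuclei a class takes in, while no level in the neuron classes moved that far. Grm2 and Grm4 rest on few UMIs in most subtypes, and Grm6 on 1.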

Other observations

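A cluster of 2140 nuclei with a median of 15513.5 UMIs and a median doublet score of 0.104 was left without a class. It held 867 and 118 nuclei of the DISC1-N libraries, against 963 and 192 of the WT libraries, so most came from replicate 1 of both genotypes. Its markers scored 0.634 for excitatory neurons and 0.593 for oligodendrocytes, closer than the gap of 0.1 asked of a class. The leading genes of the cluster included Hbb-bs, Hba-a1 and Hba-a2. Grm5 in it stood at 1795 and 2163 CPM in the DISC1-N libraries, against 1899 and 2256 CPM in the WT libraries. Grm7 stood at 2024 and 2506 CPM in the DISC1-N libraries, against 2098 and 2583 CPM in the WT libraries, and Grm8 at 844 and 1074 CPM in the DISC1-N libraries, against 855 and 1091 CPM in the WT libraries. The Grm5 levels lay within the range of the excitatory class and the lowest of Grm7 and Grm8 under it. Grm3 stood at 248 and 291 CPM in the DISC1-N libraries, against 286 and 263 CPM in the WT libraries. With the cluster added, excitatory neurons averaged 2046 CPM of Grm5, 2483 CPM of Grm7, 1006 CPM of Grm8 and 236 CPM of Grm3, against 2031, 2557, 1016 and 208 CPM without it.

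For Grm8, replicate 1 and replicate 2 differed in opposite directions in neurons and in astrocytes, whereas Grm3 in astrocytes and Grm5 in precursors were higher in replicate 2, as Grm8 was in neurons. In excitatory neurons Grm8 was higher in replicate 2 than in replicate 1 of each genotype, at 849 and 1157 CPM in the DISC1-N libraries, against 884 and 1176 CPM in the WT libraries (replicate 1 first in each pair). In astrocytes it was lower in replicate 2, at 77.7 and 25.5 CPM in the DISC1-N libraries, against 111 and 28.6 CPM in the WT libraries. Summed excitatory markers in oligodendrocytes followed the astrocyte pattern, at 926 and 427 CPM in the DISC1-N libraries, against 1091 and 501 CPM in the WT libraries. In endothelial cells Grm8 stood at 654 and 242 CPM in the DISC1-N libraries, against 649 and 73.2 CPM in the WT libraries, and their own markers summed to 3747 and 15161 CPM in the DISC1-N libraries, against 3908 and 14909.7 CPM in the WT libraries. What separates the replicate numbers, other than the software version in the file headers, was not tested.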
